A study of Homo sapiens with 16 samples.

Results

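The genes described here are 4 ligands of the epidermal growth factor receptor (HBEGF, AREG, EREG and TGFA), the receptor itself (EGFR), the transcription factor FOSL1, and 4 feedback or response genes of the MAPK pathway (SPRY2, SPRY4, DUSP6 and PHLDA1). They were chosen by name, as the rows of the deposited expression table for 10 listed genes, and 9 of them have a row among the 11282 genes of that table. SPRY4 was not analysed here. EREG fell below the filter on low values, so 8 genes were tested and EREG is given as values only.

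RNA was measured in HCC70, an established human breast cancer line classed as basal-like and triple-negative, in cells infected with vectors for short hairpin RNA (shRNA). The tested constructs carried hairpins against the transcription factors KLF5, RBPJ, NFIB or FOXA1, with 2 libraries per factor and a different hairpin in each. The control constructs were plko, named for the vector backbone, and shRFP, shLACZ and shLUC, named for genes that human cells lack, with 2 libraries each and a different construct identifier in each, which makes 8 control libraries in all. All 16 libraries thus come from infected cells of 1 line, grown in serum-containing medium, and no uninfected cells were among them. Libraries are called 1 and 2 as in the labels.

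Ligands of the EGF family are made as membrane-anchored precursors, released by cell-surface proteases, and bind EGFR or its ERBB relatives on the same or neighbouring cells. The activated receptor signals through RAS, RAF, MEK and ERK, and ERK activity raises the transcripts of AP-1 factors such as FOSL1, of several of the ligands themselves, and of inhibitors that restrain the pathway. Sprouty proteins such as SPRY2 act on receptor-to-RAS signalling, the phosphatase DUSP6 removes the activating phosphates from ERK, and PHLDA1 is a pleckstrin-homology-like protein induced by growth factors. Basal-like breast cancers are known for high EGFR and for little oestrogen receptor.

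Promoter sequences are shown for 4 genes that were higher in a single RBPJ library, RBPJ 2, than in every other library (values below). Each run is the 250 bases before the annotated start, 5′ to 3′ on the gene's strand, from RefSeq on GRCh38.p14. Capitals mark matches, on either strand, to AP-1 (TGANTCA), CRE (TGACGTCA), RBPJ (TGGGAA), KLF (CCNCNCCC) or ETS (CCGGAA) letters, and adjoining capitals can be overlapping matches. FOSL1, the other gene of that group, has no entry.
HBEGF, chr5:140346604-140346853, minus strand: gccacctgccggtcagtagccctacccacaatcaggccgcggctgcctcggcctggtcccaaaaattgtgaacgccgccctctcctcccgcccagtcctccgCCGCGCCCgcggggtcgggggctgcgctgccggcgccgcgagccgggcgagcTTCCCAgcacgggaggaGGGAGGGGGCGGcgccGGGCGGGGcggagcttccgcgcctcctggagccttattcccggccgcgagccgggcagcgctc
AREG, chr4:74444886-74445135, plus strand: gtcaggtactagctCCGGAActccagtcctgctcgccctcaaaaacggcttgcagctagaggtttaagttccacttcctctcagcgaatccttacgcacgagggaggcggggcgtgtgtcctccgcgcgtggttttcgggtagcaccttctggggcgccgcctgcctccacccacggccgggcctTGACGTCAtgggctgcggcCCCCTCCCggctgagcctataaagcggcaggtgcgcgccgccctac
TGFA, chr2:70553827-70554076, minus strand: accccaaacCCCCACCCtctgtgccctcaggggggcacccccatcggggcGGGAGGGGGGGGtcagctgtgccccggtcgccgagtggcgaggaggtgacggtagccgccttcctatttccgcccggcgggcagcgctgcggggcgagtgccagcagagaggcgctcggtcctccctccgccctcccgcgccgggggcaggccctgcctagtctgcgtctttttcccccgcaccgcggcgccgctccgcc
PHLDA1, chr12:76031777-76032026, minus strand: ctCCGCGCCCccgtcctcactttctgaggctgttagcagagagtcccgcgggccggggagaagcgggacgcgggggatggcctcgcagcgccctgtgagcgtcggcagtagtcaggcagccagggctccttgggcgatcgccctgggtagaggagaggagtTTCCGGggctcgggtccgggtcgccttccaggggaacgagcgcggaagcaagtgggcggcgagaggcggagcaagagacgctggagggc

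The HBEGF window held 1 match to the RBPJ letters, starting 96 bases before the start, and 4 matches to the KLF letters. The AREG window held 1 CRE, 65 bases before the start, with 1 KLF and 1 ETS match. TGFA had 3 KLF matches before the start shown, and 1 RBPJ and 1 ETS match before its other annotated start, which is not shown. PHLDA1 had 1 KLF and 1 ETS match. None of these 4 windows held the AP-1 letters. Of 35116 promoter windows of the same length, 6.57% held the AP-1 letters, 1.65% the CRE, 20.85% the RBPJ letters, 53.4% the KLF letters and 14.5% the ETS letters. A match describes the letters only, and 3 of the 4 windows shown lacked the RBPJ letters.

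Values are the deposited normalized read counts, and a library held between 375713 (plko 1) and 3090666 reads (RBPJ 1). The number of reads, not the normalized value, limits the precision: a single read is worth 0.249 in RBPJ 1 and 2.21 in plko 1. The targeted transcripts stood at 66.0% and 39.4% of the control mean for KLF5, 84.3% and 16.6% for RBPJ, 61.8% and 10.97% for NFIB, and 22.8% and 54.8% for FOXA1, in libraries 1 and 2 of each. The library labelled RBPJ 1 was therefore inside the control range for RBPJ, at 43.3 against 43.1 to 68.4, and directions that involve it are those of its label. The line's markers fitted the label in part: the summed level of 7 basal keratin and adhesion genes was 2976 to 9869, and TP63, a basal transcription factor, was low at 0.68 to 4.78. ESR1 reached at most 10.7 and PGR at most 6.15, while ERBB2 stood higher, at 12.0 to 34.8. Of 11 fibroblast and endothelial markers 5 had a row, with a sum of 13.2 to 51.0. Of 5 leukocyte markers 2 had a row: PTPRC stood at 0 to 3.55, and CD68 was higher, at 8.82 to 48.8.

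**Figure D1:**
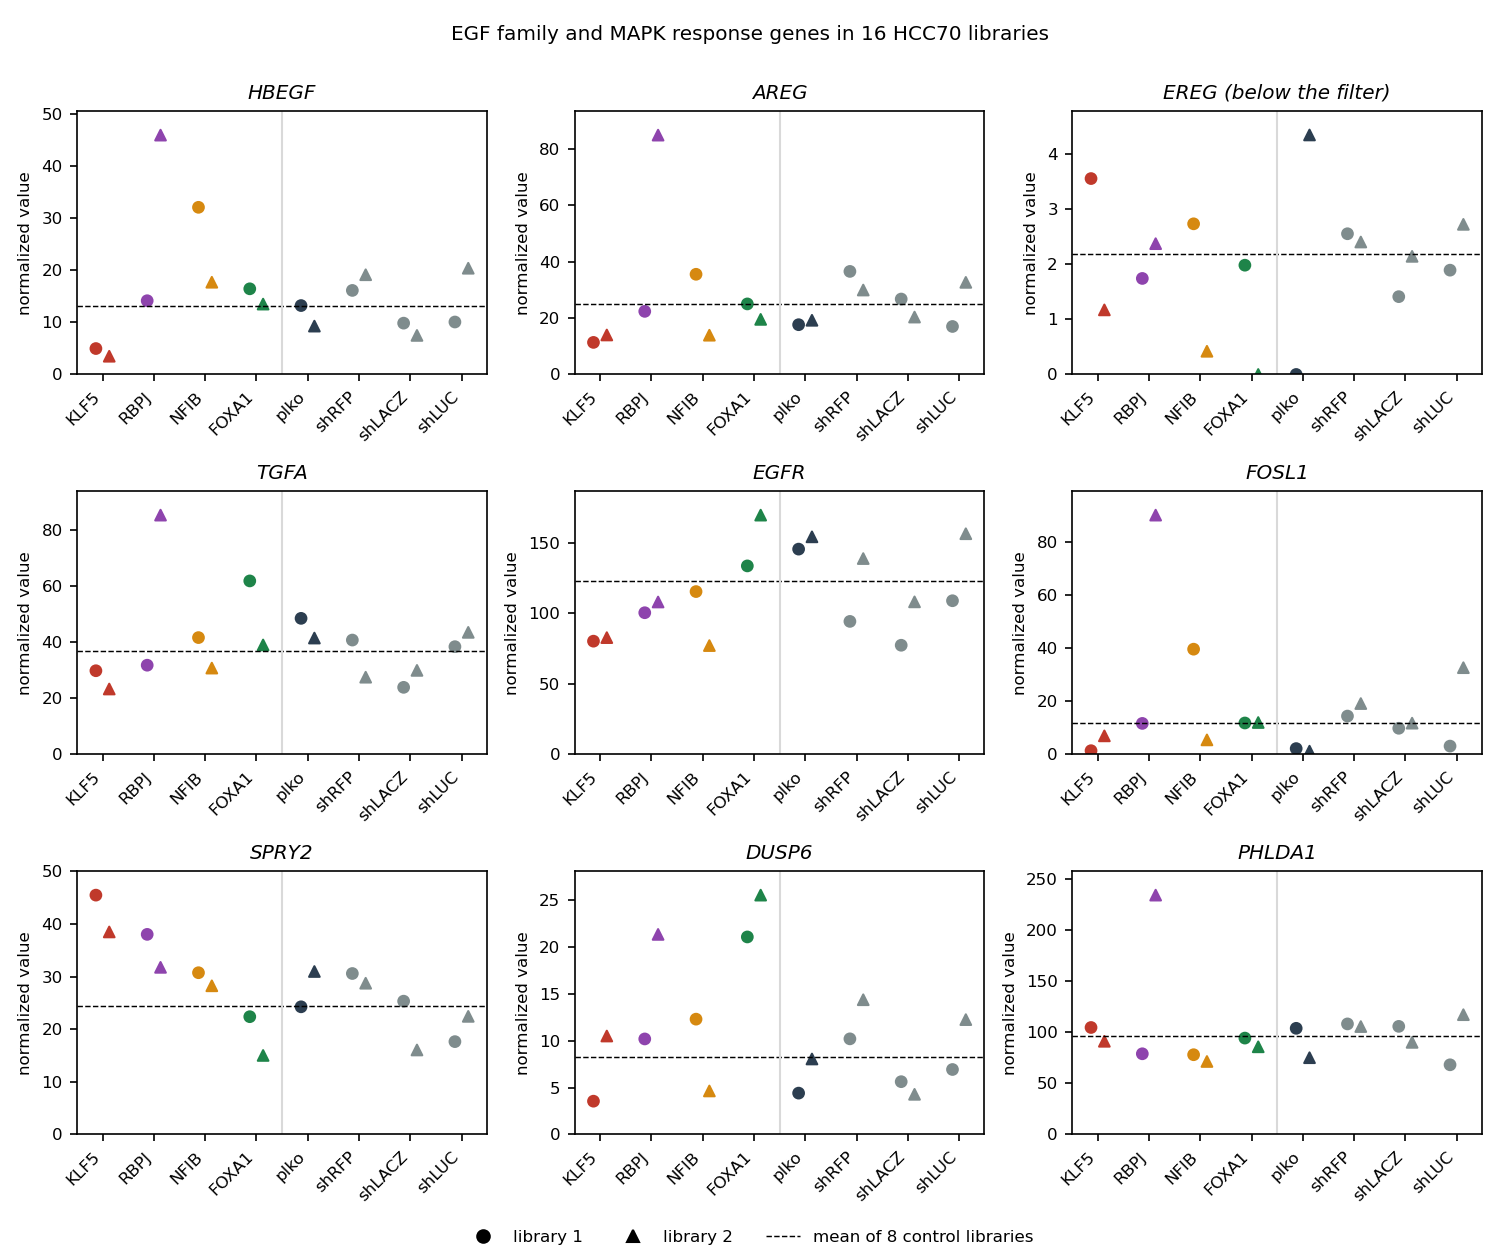
Deposited normalized value (y axis, linear, from 0) of each of the 9 genes in 16 libraries, by construct (x axis); circles are library 1, triangles library 2, and the dashed line is the mean of the 8 control libraries. RBPJ 2 is the highest library for HBEGF, AREG, TGFA, FOSL1 and PHLDA1, and both KLF5 libraries lie below every control for HBEGF and AREG.

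HBEGF (ENSG00000113070), the heparin-binding ligand of EGFR, had its lowest values with the KLF5 hairpins. It stood at 4.98 and 3.5 in KLF5 1 and 2, at 14.2 and 46.0 in RBPJ 1 and 2, at 32.1 and 17.7 in NFIB 1 and 2, and at 16.5 and 13.5 in FOXA1 1 and 2. The 8 controls had a lowest value of 7.5, a median of 11.7 and a highest of 20.4, with a mean of 13.2 ± 4.85 (SD, n = 8). Both KLF5 libraries were thus below all controls, on 7 and 3 reads, and RBPJ 2 and NFIB 1 were above all controls. By construct mean the order was RBPJ, NFIB, shRFP, shLUC, FOXA1, plko, shLACZ and KLF5. Only 2 of the 7 neighbouring steps in that order had both libraries of the higher construct above both of the next: FOXA1 over plko, and shLACZ over KLF5.

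AREG (ENSG00000109321) encodes amphiregulin, a ligand with its own heparin-binding region. It stood at 11.4 and 14.0 in KLF5 1 and 2, at 22.4 and 84.9 in RBPJ 1 and 2, at 35.5 and 13.9 in NFIB 1 and 2, and at 25.0 and 19.5 in FOXA1 1 and 2. The controls ran from 17.0 over a median of 23.6 to 36.6, with a mean of 25.0 ± 7.49 (SD, n = 8). Both KLF5 libraries were below the controls, RBPJ 2 was above every other library, and of the NFIB libraries NFIB 2 was below the controls and NFIB 1 within their range. Annotations of GRCh37, the submitters' build, carry a near-identical copy named AREGB, so AREG reads may have been divided between them and its level is uncertain.

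TGFA (ENSG00000163235), transforming growth factor alpha, varied less. It stood at 29.9 and 23.3 in KLF5 1 and 2, at 31.8 and 85.3 in RBPJ 1 and 2, at 41.7 and 30.8 in NFIB 1 and 2, and at 61.9 and 39.0 in FOXA1 1 and 2. The controls ran from 23.9 over a median of 39.6 to 48.5, with a mean of 36.8 ± 8.63 (SD, n = 8). RBPJ 2 and FOXA1 1 exceeded the controls, and the other 6 libraries with targeting hairpins lay within the control range or, for KLF5 2, just under it. No neighbouring constructs in the order of TGFA means were separated by both libraries.

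EREG (ENSG00000124882), epiregulin, was close to the detection limit in every library, with 0 to 7 reads and normalized values of 0 to 4.34. It had no read in FOXA1 2 and plko 1, where a count of 0 allows up to 4.51 and 6.62 on the same scale (3 reads, counting error only). No difference in EREG was detectable at this depth.

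EGFR (ENSG00000146648), the receptor, rested on 55 to 404 reads per library. It stood at 80.3 and 82.8 in KLF5 1 and 2, at 100.5 and 108 in RBPJ 1 and 2, at 115.5 and 77.2 in NFIB 1 and 2, and at 134 and 170 in FOXA1 1 and 2. The controls ran from 77.4 over a median of 124 to 156.5, with a mean of 123 ± 29.7 (SD, n = 8). FOXA1 2 alone was above the control range and NFIB 2 alone was below it, by a narrow margin. In RBPJ 2, where HBEGF, AREG and TGFA were at their highest, the receptor was within the range of the controls. No neighbouring constructs in the order of EGFR means were separated by both libraries.

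FOSL1 (ENSG00000175592) encodes FRA1, an AP-1 subunit whose transcript and protein rise with ERK activity, and it had the widest range of the 9 genes. It stood at 1.42 and 7.0 in KLF5 1 and 2, at 11.7 and 90.1 in RBPJ 1 and 2, at 39.6 and 5.48 in NFIB 1 and 2, and at 11.9 and 12.0 in FOXA1 1 and 2. The plko libraries stood at 2.21 and 1.24, on 1 and 2 reads, against 3.15 in shLUC 1 and 32.7 in shLUC 2, the lowest and the highest of the 6 hairpin controls. All 8 controls together had a median of 10.8 and a mean of 11.8 ± 10.5 (SD, n = 8). The highest library, RBPJ 2, was 72.7-fold above the lowest, plko 2, which has 2 reads. Both plko libraries were below the 6 hairpin controls, and both libraries of a construct lay apart from the next construct for shRFP over FOXA1, FOXA1 over shLACZ and shLACZ over KLF5.

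SPRY2 (ENSG00000136158), a Sprouty inhibitor of receptor-to-RAS signalling, was highest with the KLF5 hairpins. It stood at 45.5 and 38.5 in KLF5 1 and 2, at 38.0 and 31.8 in RBPJ 1 and 2, at 30.8 and 28.3 in NFIB 1 and 2, and at 22.4 and 15.02 in FOXA1 1 and 2. The controls ran from 16.1 over a median of 24.8 to 31.0, with a mean of 24.5 ± 5.61 (SD, n = 8). Both KLF5 and both RBPJ libraries were above all controls, and the KLF5 libraries were above the RBPJ libraries as well. FOXA1 2 was just below the control range.

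DUSP6 (ENSG00000139318), the ERK phosphatase, was highest with the FOXA1 hairpins. It stood at 3.55 and 10.5 in KLF5 1 and 2, at 10.2 and 21.3 in RBPJ 1 and 2, at 12.3 and 4.64 in NFIB 1 and 2, and at 21.1 and 25.5 in FOXA1 1 and 2. The controls ran from 4.28 over a median of 7.49 to 14.4, with a mean of 8.27 ± 3.71 (SD, n = 8). Both FOXA1 libraries were above all controls, on 32 and 17 reads, and RBPJ 2 was above them too, while KLF5 1 was just below.

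PHLDA1 (ENSG00000139289) lay in a narrow band in 15 of the 16 libraries. It stood at 104.5 and 91.0 in KLF5 1 and 2, at 78.8 and 234 in RBPJ 1 and 2, at 77.9 and 71.3 in NFIB 1 and 2, and at 94.2 and 85.6 in FOXA1 1 and 2. The controls ran from 68.1 over a median of 104.5 to 117, with a mean of 96.6 ± 17.2 (SD, n = 8). RBPJ 2, with 493 reads of PHLDA1, was above every other library, and the remaining libraries with targeting hairpins lay inside the control range.

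With the KLF5 hairpins none of the 8 tested genes passed limma's test over all genes (adjusted p under 0.05), where 5.37% of all genes did, and 4 were at an unadjusted p under 0.05, where 20.1% of all genes were. HBEGF was closest to the threshold, with a log2 fold change of -1.38 (SE 0.41, limma adjusted p = 0.0506). The estimate for AREG was -0.88 (SE 0.40, adjusted p = 0.216), for EGFR -0.55 (SE 0.24, 0.206) and for SPRY2 0.78 (SE 0.27, 0.0973). For 3 of the 8 genes the KLF5 libraries did not overlap the controls (HBEGF and AREG lower, SPRY2 higher), as was so for 16.3% of all genes. The exact permutation p was 0.0444 for each of these 3, the smallest that 2 libraries against 8 can give. The median log2 fold change of the 8 genes was -0.49, against 0.05 over all genes.

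The HBEGF difference sat at the edge of the threshold. Pooled over libraries, HBEGF had 10 reads with the KLF5 hairpins and 116 in the controls, a ratio of 0.334 after scaling by library size factors (95% exact interval 0.156 to 0.637, counting error only). HBEGF passed limma without plko 1 (adjusted p = 0.0403), plko 2 (0.0391) or shLACZ 2 (0.0388). It did not pass limma without shRFP 1 (0.0800), shRFP 2 (0.0811), shLACZ 1 (0.05225), shLUC 1 (0.0585) or shLUC 2 (0.0783). Its log2 fold change was -1.59 without KLF5 1 and -1.18 without KLF5 2. There 1 KLF5 library is left with no spread of its own, so only the effect is given. Leaving out an RBPJ library, which is not in this comparison, left the log2 fold change at -1.38. The adjusted p then moved with the spread that all constructs share, so the near miss did not depend on the controls alone. Against the 6 hairpin controls alone HBEGF passed limma (-1.43, 0.0270), as did SPRY2 (0.84, 0.0480) and 11% of all genes. HBEGF did not pass with edgeR's quasi-likelihood test (0.102) or DESeq2 (0.0789) on recovered reads. Against plko as the only control, the log2 fold change was -1.22 for HBEGF (adjusted p = 0.182), -0.51 for AREG (0.607), -0.87 for EGFR (0.0837) and 0.59 for SPRY2 (0.349). The libraries differed in more than these genes: the summed level of 5 epithelial markers was 1464 to 1587 with the KLF5 hairpins and 1655 to 2762 in the controls, lower for KRT19, KRT8 and KRT18 but not for EPCAM (301 to 380, against 280.5 to 377 in the controls) or CDH1 (551 to 743, against 421 to 759 in the controls). The sum of the 5 fibroblast and endothelial markers with a row was 46.2 to 50.2 with the KLF5 hairpins and 13.2 to 31.5 in the controls. Of these markers COL1A1 (27.0 to 29.2, against 6.8 to 25.8 in the controls) and DCN (4.27 to 5.83, against 0 to 4.22) were higher. In KLF5 1 DCN exceeded the highest control by less than 1 read, which is worth 0.711 there. COL1A2, PDGFRA and ENG overlapped the controls, and the highest sum of all libraries was in NFIB 2, at 51.0. The part of these markers in the result was not tested, and in bulk RNA fewer cells of a type and less RNA per cell cannot be told apart.

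**Figure D2:**
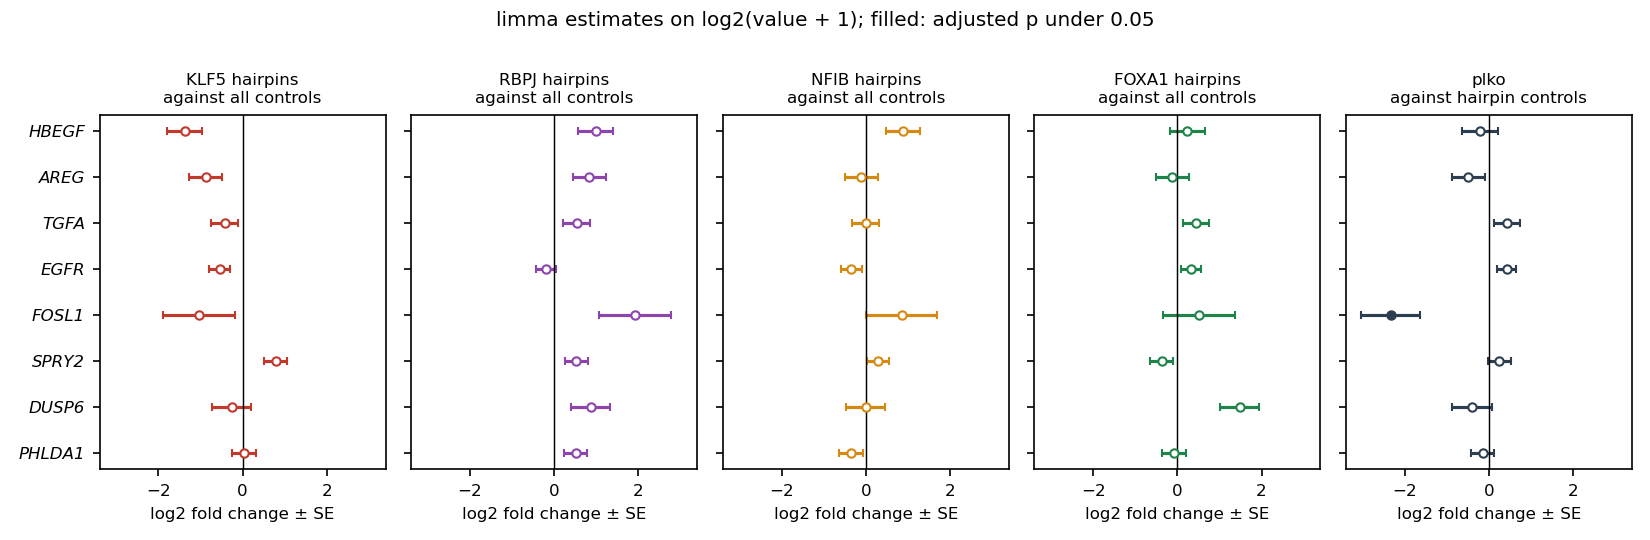
Log2 fold change (x axis) with its standard error for 8 genes (rows) in 5 comparisons (panels), by limma on log2(value + 1); filled points passed at an adjusted p under 0.05. FOSL1 in plko against the hairpin controls (-2.33) is the filled point, and HBEGF with the KLF5 hairpins (-1.38, adjusted p 0.0506) is open.

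With the RBPJ hairpins none of the 8 tested genes passed limma's test, where 0.0277% of all genes did, and 3 were at an unadjusted p under 0.05, where 5.48% of all genes were. These 3 were FOSL1 (log2 fold change 1.92, SE 0.85, limma adjusted p = 0.864), HBEGF (0.98, SE 0.41, 0.819) and AREG (0.84, SE 0.40, 0.912). For 1 of the 8 genes, SPRY2, the RBPJ libraries did not overlap the controls, as was so for 4.46% of all genes. SPRY2 had a log2 fold change of 0.52 (SE 0.27, adjusted p = 0.932) and an exact permutation p of 0.0444. The median log2 fold change was 0.68 over the 8 genes and 0.05 over all genes.

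RBPJ 2 was the highest of the 16 libraries for 5 of the 8 genes (HBEGF, AREG, TGFA, FOSL1 and PHLDA1), where 9.67% of all genes had their highest value there. RBPJ 1, whose RBPJ transcript was within the control range, was highest for none of them and lay within the control range for all 5. When RBPJ 2 was the only RBPJ library in the fit, its spread was taken from the remaining groups. The log2 fold change was then 1.80 for HBEGF, 1.78 for AREG, 1.23 for TGFA, 3.34 for FOSL1 and 1.29 for PHLDA1. With RBPJ 1 as the only RBPJ library, these 5 genes stood at 0.17, -0.10, -0.17, 0.49 and -0.27. With RBPJ 2 alone 1.31% of all genes passed limma, PHLDA1 among them. That fit cannot decide whether the RBPJ hairpins change PHLDA1, because the difference between RBPJ 1 and RBPJ 2 does not enter it. Against plko as the only control FOSL1 passed, at a log2 fold change of 3.66 (adjusted p = 0.0271), where 2.52% of all genes passed, over plko libraries with 1 and 2 reads.

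Several keratin and epithelial markers were also above the control range in RBPJ 2, and others were not. KRT17, a basal keratin, was at 2440 in RBPJ 2 and at 320 to 1329 in the controls, KRT8 at 395 in RBPJ 2 and 14.2 to 256 in the controls, and the 5 epithelial markers summed to 3355 in RBPJ 2 and 1655 to 2762 in the controls. Of the leukocyte markers CD68 was at 48.8 in RBPJ 2 and 8.82 to 31.0 in the controls, while PTPRC was at 2.37, near the value of 3 reads (1.42). The 7 basal markers summed to 8849 in RBPJ 2 and 2976 to 7480 in the controls, and NFIB 1 was higher at 9869. KRT5 (3535), KRT14 (25.6), KRT6B (699.9) and CDH3 (895) were inside the control range in RBPJ 2. The part of these differences in the values of the EGF family genes was not tested.

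With the NFIB hairpins none of the 8 tested genes passed limma's test, where 0.00924% of all genes did, and 1 was at an unadjusted p under 0.05, where 6.66% of all genes were. That gene was HBEGF, with a log2 fold change of 0.88 (SE 0.41, limma adjusted p = 0.738). For 0 of the 8 genes were both NFIB libraries on one side of the controls, as was so for 6.12% of all genes. The 2 hairpins pointed in opposite directions for FOSL1, at 2.17 in NFIB 1 and -0.47 in NFIB 2, and for AREG, at 0.54 in NFIB 1 and -0.75 in NFIB 2. They did so too for DUSP6, at 0.62 in NFIB 1 and -0.62 in NFIB 2, and for TGFA, at 0.21 in NFIB 1 and -0.21 in NFIB 2. The NFIB transcript itself was lower in NFIB 2. The median log2 fold change was 0.00 over the 8 genes and 0.05 over all genes.

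With the FOXA1 hairpins none of the 8 tested genes passed limma's test, where 0.00924% of all genes did, and 1 was at an unadjusted p under 0.05, where 5.10% of all genes were. That gene was DUSP6, with a log2 fold change of 1.49 (SE 0.46, limma adjusted p = 0.759), 1.35 in FOXA1 1 and 1.62 in FOXA1 2. It was also the 1 gene of 8 for which the FOXA1 libraries did not overlap the controls, as was so for 5.07% of all genes. DUSP6 had 49 reads with the FOXA1 hairpins and 76 in the controls, a ratio of 2.59 after scaling by size factors (95% exact interval 1.77 to 3.76, counting error only), and an exact permutation p of 0.0444. Against plko as the only control its log2 fold change was 1.79 (adjusted p = 0.137). The median log2 fold change was 0.28 over the 8 genes and 0.00 over all genes.

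The empty-backbone control was set against the hairpin controls because both kinds serve as the baseline of every other comparison. FOSL1 was lower in plko and was the 1 of 8 genes that passed, where 7.5% of all genes did; the log2 fold change was -2.33 (SE 0.71, limma adjusted p = 0.0442). It was also the 1 gene of 8 for which plko did not overlap the hairpin controls, as was so for 22.3% of all genes. FOSL1 had 3 reads in plko and 104 in the hairpin controls, a ratio of 0.0937 after scaling by size factors (95% exact interval 0.0190 to 0.281, counting error only). The exact permutation p was 0.0714, the smallest that 2 libraries against 6 can give. The call was lost without plko 1 (adjusted p = 0.241), plko 2 (0.164), shRFP 1 (0.0735), shRFP 2 (0.0770), shLACZ 1 (0.0574), shLACZ 2 (0.0647), shLUC 2 (0.0821), FOXA1 1 (0.0557) or FOXA1 2 (0.0557), and with edgeR's quasi-likelihood test (0.162). The other 7 genes had log2 fold changes of -0.49 to 0.43, and the median over the 8 was -0.18, against 0.01 over all genes.

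Across the 8 constructs, with no group taken as the baseline, limma's F test called none of the 8 genes, where 4.42% of all genes passed. At an unadjusted p under 0.05 there were 5 of the 8 genes (HBEGF, SPRY2, DUSP6, EGFR and FOSL1), where 21.5% of all genes were. HBEGF missed the threshold narrowly (F test adjusted p = 0.05002). Leaving out a library leaves 1 for its construct, with no spread of its own. Such F tests cannot decide whether that construct differs, so none is given. With edgeR and DESeq2 on recovered reads 0 of the 8 genes passed across constructs or in any of the 5 comparisons. Across constructs edgeR used an F test and DESeq2 a likelihood ratio test. DESeq2 gave no adjusted p for 5 of the 8 genes with the RBPJ hairpins and for 3 with the NFIB hairpins, in plko and across constructs.

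**Figure D3:**
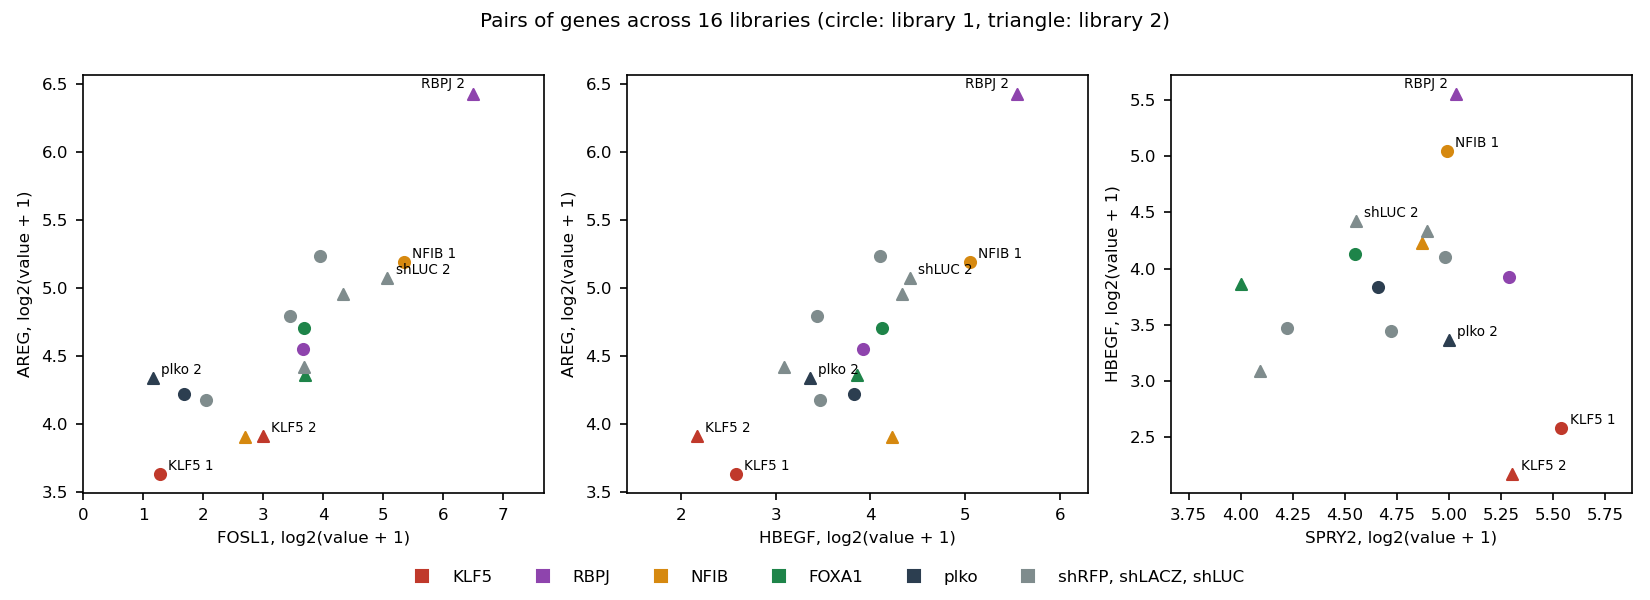
Log2(value + 1) of AREG against FOSL1, AREG against HBEGF and HBEGF against SPRY2 in 16 libraries, coloured by construct, with circles for library 1 and triangles for library 2. AREG, FOSL1 and HBEGF follow each other across libraries (r of 0.86 and 0.81), with RBPJ 2 at the top right, while SPRY2 and HBEGF do not (r of -0.10).

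HBEGF, AREG and FOSL1 varied together across the 16 libraries, while TGFA followed FOSL1 less closely and SPRY2 did not follow HBEGF. On the log2(value + 1) scale Pearson's r was 0.86 for AREG and FOSL1, 0.81 for HBEGF and AREG, and 0.74 for HBEGF and FOSL1. Without RBPJ 2 the same values were 0.79, 0.72 and 0.62 over 15 libraries. The r of AREG and PHLDA1 was 0.72 with RBPJ 2 and 0.34 without it, and that of TGFA and FOSL1 was 0.39 with it and 0.05 without it. SPRY2 had an r between -0.49, with EGFR, and 0.18, with PHLDA1. These are descriptions: libraries share constructs, their depths differ, and FOSL1 rests on as few as 1 read in a library.

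Other genes with a similar pattern were named by taking those with the highest r for each gene over the 16 libraries, at most 2 per gene. For HBEGF these were ICAM3, a leukocyte adhesion molecule (r of 0.92), and TMEM208, for AREG NOB1 (0.86), and for FOSL1 CCN1, a secreted matricellular protein (0.89). TGFA came closest to TNFAIP3, an inhibitor of NF-kB signalling (0.83), and SYTL4, and PHLDA1 to F3, tissue factor (0.84), and SSR3. For EGFR they were ECPAS and ITSN2, for SPRY2 B3GNT2 and MAP1S, and for DUSP6 MACF1 and UTP14A, with r of 0.82 to 0.87. Without RBPJ 2 the r fell to 0.72 for NOB1, 0.67 for SYTL4, 0.67 for F3 and 0.62 for SSR3. It fell less or rose for the other genes named, as with ICAM3 (0.89), CCN1 (0.84) and TNFAIP3 (0.92).

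A list of 18 other genes held EGF family ligands, ERBB receptors, and genes of ligand release and receptor control. Among them were EGF, EPGN, NRG1, ERBB2, ERBB3, ADAM17, ERRFI1 and LRIG1. Of the 18 genes 15 had a row and 14 were tested, and 0 passed in any of the 5 comparisons or in the F test by limma or edgeR. DESeq2 called 0 too, but outside the FOXA1 comparison it gave no adjusted p for 5 to 8 of the 14. At an unadjusted limma p under 0.05 there were 4 with the KLF5 hairpins (20.1% of all genes), 2 with the FOXA1 hairpins (5.10%) and 2 in plko (23.0%). The nearest with the KLF5 hairpins was ERBB3, the kinase-impaired partner of EGFR and ERBB2, at 93.8 and 110 in KLF5 1 and 2 and 58.5 ± 9.48 in the controls (SD, n = 8), with a log2 fold change of 0.80 (SE 0.26, limma adjusted p = 0.0716). EPGN, a further EGFR ligand, was the 1 gene of 14 that had its highest value in RBPJ 2, at 15.2, against 4.25 to 14.4 in the controls. Of 24 genes of the RAS-MAPK cascade, from the adaptors SHC1 and GRB2 over RAS, RAF, MEK and ERK to the factor SRF, all had a row and were tested, and 0 passed in any comparison by limma or edgeR. DESeq2 called 0 too, but outside the FOXA1 comparison it gave no adjusted p for 2 to 9 of the 24. At an unadjusted limma p under 0.05 there were 2 with the KLF5 hairpins (20.1% of all genes), 4 with the NFIB hairpins (6.66%), 10 in plko (23.0%) and 5 in the F test (21.5%). The adaptors SHC1 and GRB2 were the 2 of 24 with their highest value in RBPJ 2, again beside 9.67% of all genes.

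Of 40 other response and feedback genes of the MAPK pathway 34 had a row and 32 were tested. With the KLF5 hairpins 1 rose and 1 fell by limma, where 5.37% of all genes passed, with a median log2 fold change of 0.20 over the list and 0.05 over all genes. IER2, an immediate early gene, fell to 31.3 and 21.0 in KLF5 1 and 2, against 111 ± 38.2 in the controls (SD, n = 8), by 1.97 on the log2 scale (limma adjusted p = 0.00268). The controls for IER2 were of 2 kinds: plko stood at 57.4 and 46.5, and the hairpin controls at 131 ± 12.8 (SD, n = 6). Against plko as the only control the log2 fold change was -0.98 (adjusted p = 0.0433), and without KLF5 2 it was -1.69 (0.0975).

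PHLDA2, an imprinted relative of PHLDA1, rose to 385 and 318.5 in KLF5 1 and 2, against 179 ± 45.4 in the controls (SD, n = 8), with a log2 fold change of 1.001 (limma adjusted p = 0.0318). The call was lost without KLF5 1 (0.339), KLF5 2 (0.161), shLACZ 2 (0.0525) or shLUC 1 (0.0506). CCND1, which encodes cyclin D1, was at 79.6 and 77.0 in KLF5 1 and 2 and at 144 ± 37.4 in the controls (SD, n = 8), a log2 fold change of -0.83 that passed with DESeq2 but not with limma (adjusted p = 0.0788). With the RBPJ, NFIB or FOXA1 hairpins 0 of the 32 passed by limma or edgeR. DESeq2 called 0 as well, but gave no adjusted p for 16 of them with the RBPJ hairpins and 10 with the NFIB hairpins. An unadjusted limma p under 0.05 was seen for 1 of the 32 with the RBPJ hairpins (5.48% of all genes). It was seen for 1 with the NFIB hairpins (6.66%) and 3 with the FOXA1 hairpins (5.10%). The same count was 7 with the KLF5 hairpins (20.1%), 13 in plko (23.0%) and 9 in the F test (21.5%). In the F test IER2 was the 1 gene that passed, where 4.42% of all genes did (adjusted p = 0.000108).

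In plko against the hairpin controls 3 of the 32 fell, IER2, PHLDA3 and LIF, where 7.5% of all genes passed. IER2 fell by 1.32 on the log2 scale (limma adjusted p = 0.000881). PHLDA3, another relative of PHLDA1 and a target of p53, was at 33.1 and 31.6 in plko 1 and 2, against 69.4 ± 9.27 in the hairpin controls (SD, n = 6), a log2 fold change of -1.07 (adjusted p = 0.0226) that was lost with edgeR (0.0657) and without plko 1 (0.198) or plko 2 (0.0772). LIF, a cytokine of the interleukin-6 family, was listed at 0 and 1.86 in plko 1 and 2, against 6.88 ± 1.96 in the hairpin controls (SD, n = 6), where a count of 0 in plko 1 allows up to 6.62; its call (adjusted p = 0.0255) was lost with a pseudocount of 5 (0.0767), quantile normalization (0.0773), edgeR (0.182) and without plko 1 (0.503), and DESeq2 gave it no adjusted p.

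RBPJ 2 had the highest value of all libraries for 7 of the 32 response genes, where 9.67% of all genes did: the phosphatases DUSP4 and DUSP7, IER2, IER3, PHLDA3, and the urokinase PLAU with its receptor PLAUR. PLAUR was at 428 in RBPJ 2, against 123.5 to 273 in the controls, and PLAU at 61.2 in RBPJ 2, against 15.5 to 50.3 in the controls. FOS, the immediate early AP-1 subunit, was lowest there, at 6.16, against 16.1 to 64.0 in the controls. EGR1, another immediate early factor, was at 28.8 in RBPJ 1 and 6.64 in RBPJ 2, against 4.25 to 18.3 in the controls. ATF3 (17.5 in RBPJ 2, against 20.2 to 57.4 in the controls) was below the controls too. So was JUN, by a narrow margin (49.3, against 50.3 to 139). Some of the response genes were thus above the controls in RBPJ 2, and FOS, ATF3 and JUN were below them.

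**Figure D4:**
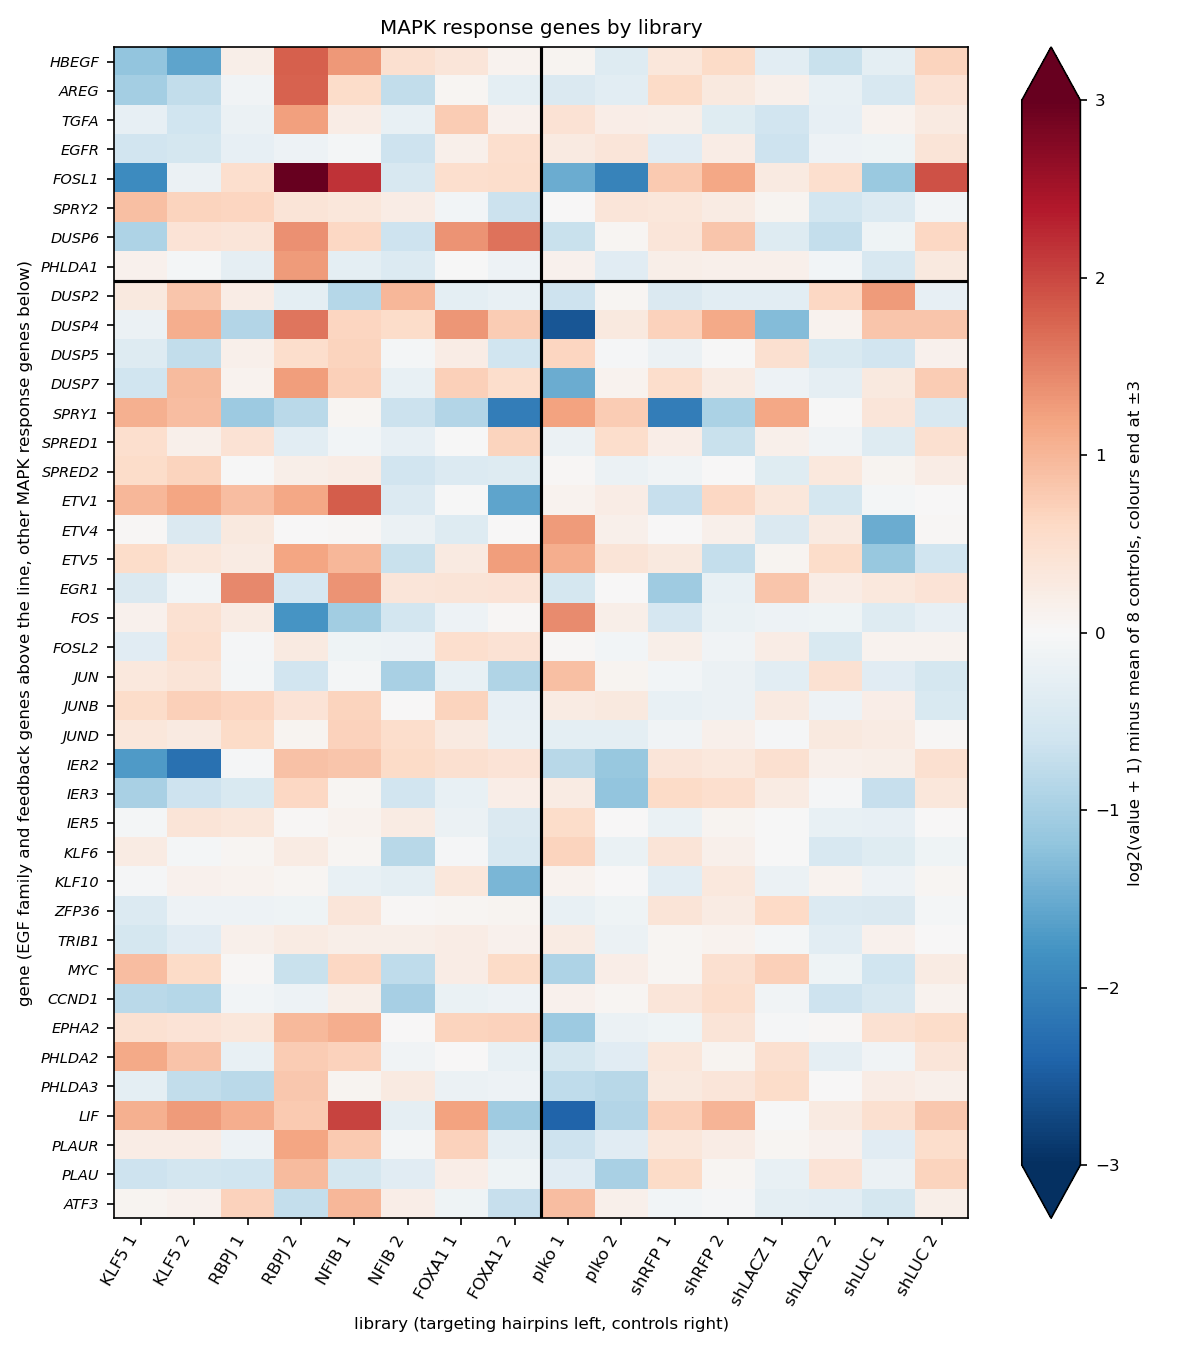
Difference of log2(value + 1) from the mean of the 8 controls (colour, ending at ±3) for the 8 tested genes (above the line) and other MAPK response genes (below it) in 16 libraries, with targeting hairpins left of the vertical line. The RBPJ 2 column is high for FOSL1 (3.34), HBEGF (1.80) and AREG (1.78) and low for FOS (-1.77), and the KLF5 columns are low for IER2 (-1.69 and -2.25).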

How the data were processed

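RNA of 16 HCC70 libraries was copied to 3′ cDNA, barcoded in batches of 12 and amplified with a CEL-Seq type protocol, per the labels. Per the name of the table, the authors deposited a DESeq2-normalized signal per gene; per the submitters' processing notes, reads were placed on GRCh37. Batch membership, reruns, aligner and counter were not given in the sources used here. Reads were recovered because 100% of values were multiples of a 1-read step (tolerance 0.05 of a read). A further 2 columns match no sample and were left out. Symbols were found for 11259 of 11282 identifiers.

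limma 3.58.1 with a mean-variance trend was fitted on log2(value + 1) to all 16 libraries, for the 10826 genes reaching 5 in 2 or more libraries (456 removed), 2-sided, with Benjamini-Hochberg adjustment over all genes and calls under 0.05. This scale understates changes of low genes. Single values had exact permutation tests. Alternatives were pseudocounts, filters, control sets, quantile normalization, a replicate block, left-out libraries, and edgeR 4.0.16 and DESeq2 1.42.0 on recovered reads. The fit was tested on simulated data. Nothing says that libraries came from separate cultures, so p-values measure only their spread, hairpin differences included. Genes and lists were chosen with earlier results of these data known. The rule names all 10 listed genes and called list members. CCND1, ERBB3, EPGN, SHC1, GRB2, FOS, ATF3, JUN, EGR1, PLAU and PLAUR were named after their values were seen. Some of the genes alike in pattern are not reported here.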

Additional observations from a re-analysis of the deposited data

How the results depend on the processing

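The count of called genes among the 8 depended on the setting in 4 of 6 tests. With the KLF5 hairpins it was 0, beside 5.37% of all genes, and 1 with a pseudocount of 0.5, a filter at 20 or quantile normalization (HBEGF). It was 2 against the 6 hairpin controls, beside 11% of all genes, and 0 to 1 when a control library was left out. With the RBPJ hairpins it was 0, beside 0.0277% of all genes, and 1 against plko alone, beside 2.52%. It was 0 when a control library was left out. In plko against the hairpin controls it was 1, beside 7.5% of all genes, and 0 with a pseudocount of 5, a filter at 20, quantile normalization or edgeR. It was 0 to 1 when a hairpin control library was left out. DESeq2 gave no adjusted p for FOSL1 in plko. In the F test it was 0, beside 4.42% of all genes, and 1 with quantile normalization. With the NFIB and FOXA1 hairpins it was 0 in each alternative run. Shares of all genes were not counted for the other settings, so those counts have no background beside them. The cause of these changes was not tested.

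Of the 40 log2 fold changes, 15 changed sign in at least 1 alternative, none of them a called value. Against plko alone these were AREG with FOXA1 (0.25) and NFIB hairpins (0.27), PHLDA1 with FOXA1 hairpins (0.026), and DUSP6 (0.048) and FOSL1 (0.72) with KLF5 hairpins. Against the 6 hairpin controls they were FOSL1 with FOXA1 (-0.061), PHLDA1 with KLF5 (-0.00039), and DUSP6 (-0.10) and TGFA (0.10) with NFIB hairpins. With edgeR they were FOSL1 with FOXA1 (-0.040) and DUSP6 with NFIB hairpins (-0.11), and with quantile normalization DUSP6 (-0.14) and TGFA (0.0054) with NFIB hairpins. Leaving out a library gave, with FOXA1 hairpins, -0.29 to 0.052 for AREG, with KLF5 hairpins, -0.92 to 0.41 for DUSP6 and -0.063 to 0.13 for PHLDA1, and with NFIB hairpins, -0.75 to 0.54 for AREG, -0.62 to 0.62 for DUSP6, -0.47 to 2.17 for FOSL1 and -0.21 to 0.21 for TGFA. With RBPJ hairpins it gave -0.10 to 1.78 for AREG, -0.27 to 1.29 for PHLDA1 and -0.17 to 1.23 for TGFA, and in plko against hairpin controls -0.44 to 0.023 for HBEGF and -0.38 to 0.087 for PHLDA1.

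The replicate numbers did not pair the libraries: deviations of same-numbered libraries correlated at -0.195 to 0.216 over 28 pairs of groups. With the replicate block FOSL1 in plko had a log2 fold change of -2.33 (limma adjusted p = 0.0362), HBEGF with KLF5 hairpins had -1.38 (0.0589), and the block changed no count of calls. Few reads limit HBEGF, FOSL1, DUSP6 and EREG in the shallow libraries, and 2 libraries per construct limit every comparison.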
